A study of Homo sapiens with 4 samples.

Results

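A group of 6 endoplasmic reticulum genes was followed in knockdown of TARBP2, which encodes a double-stranded RNA-binding cofactor of Dicer: HSPA13, ERLIN1, ERLIN2, SACM1L, TMEM33 and TAPT1. They are 6 of the 19171 genes that could be named on the arrays, and 10 of the 47323 probes measure them. They were picked by name for their falls in knockdown in these same data, so their differences between knockdown and control are given as a description, with no test. For 5 of the 6 genes the brightest probe stood at 25.3% to 39.5% of its control level after background correction and normalization. The exception was ERLIN1, whose probe stood at 95.8% of its control level on that scale, with overlapping groups, and at 101.4% in the deposited signal. The description as a gene with a large fall thus goes against the data for ERLIN1.

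The cells were MDA-LM2 shDicer, lung-metastatic cells selected from the breast cancer line MDA-MB-231; all groups carry a short hairpin against Dicer. RNA was taken 48 h after lipid transfection and measured on Illumina BeadChips. The knockdown group is 2 arrays, siTARBP2-1 and siTARBP2-2, each a different siRNA against TARBP2, and the control group is 2 arrays, siControl-1 and siControl-2, labelled as transfected with control siRNA, while the design text speaks of mock transfection. Neither siRNA sequence was used here. The labels do not state that the cultures were separate, and p-values for other genes therefore reflect only how far these 4 arrays scatter, which may be technical scatter. In whole-culture RNA, fewer cells that express a gene and less RNA per cell cannot be told apart.

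The endoplasmic reticulum is the membrane network in which secreted and membrane proteins are folded, in which lipids and cholesterol are made, and from which calcium is released. Proteins that fail to fold, and some that are switched off on demand, are pulled out of its membrane and destroyed by the proteasome, a route called endoplasmic reticulum-associated degradation. When unfolded proteins build up, the sensors PERK, IRE1 and ATF6 start the unfolded protein response. The 6 genes act at different points of this organelle: a chaperone relative (HSPA13), a pair of membrane scaffold proteins used in degradation (ERLIN1 and ERLIN2), a lipid phosphatase (SACM1L), a membrane protein tied to the shape of the network (TMEM33), and a membrane protein known from skeletal development and cilia whose yeast relative Emp65 lies in the endoplasmic reticulum (TAPT1).

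TARBP2 itself was checked first. Its brightest probe (NM_134323) had a signal of 112.8 and 100.6 with siTARBP2-1 and siTARBP2-2, against 652.5 and 629.9 with siControl-1 and siControl-2. The groups were far apart, and after normalization the probe stood at 10.1% of control. The cell label was checked against markers. All 6 markers of MDA-MB-231 cells, among them VIM and CD44, were detected on all 4 arrays, with a summed signal between 62080 and 71400. Of 4 luminal epithelial markers with a probe, ESR1, PGR and CDH1 were detected on none and GATA3 on 3 arrays near background. Of 4 blood markers 3 were detected on no array. The exception, CD68, was bright on all 4 arrays, with signals between 4535.5 and 5372.4. Among 3 endothelial markers CDH5 was detected on none, VWF on 1 array, and PECAM1 on all 4 with signals between 104.4 and 106.9. The 2 deposited tables of array values are crosswise: each column of the submitters' normalized table correlates best with an array of the opposite group in the non-normalized table (r between 0.99974 and 0.999975), and taken as labelled it would have TARBP2 higher by 2.57 in knockdown. The non-normalized table, in which TARBP2 is low where its siRNAs are named, was used throughout. At a detection p under 0.01, each array detected 39.1% to 40.8% of its probes.

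The promoter table of RefSeq (GRCh38.p14) holds 3 of the 6 genes, and that of HSPA13, the gene with the largest fall, is shown. The 250 bases before its annotated start are printed, since ATF6 and its partner NF-Y act on endoplasmic reticulum genes through the ER stress element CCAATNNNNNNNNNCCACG. Capitals mark, on either strand, the part of that element that ATF6 itself contacts, CCACG, and the core TGACG of ATF and CREB sites. The NF-Y box CCAAT was searched too.
HSPA13 (chr21:14383147-14383396, minus strand): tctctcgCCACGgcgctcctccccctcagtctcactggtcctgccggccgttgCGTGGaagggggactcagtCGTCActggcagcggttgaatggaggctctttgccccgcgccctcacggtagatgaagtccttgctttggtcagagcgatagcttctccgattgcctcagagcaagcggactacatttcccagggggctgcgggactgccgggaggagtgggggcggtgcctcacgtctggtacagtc

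HSPA13 held CCACG at 2 places and TGACG at 1, and CCAAT at 0. Over all 35116 windows of this length, 33.5% held CCACG, 32% held CCAAT and 21.2% held TGACG on either strand, so such letters are common. The full ER stress element was in 0.074% of windows and not in the window shown. HSPA13 also held 1 GC box (GGGCGG), and 42.6% of windows held at least 1. A match is a description of the letters and not a binding site.

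HSPA13 encodes a microsome-associated member of the HSP70 chaperone family that has the ATPase part but lacks the usual peptide-binding part. The gene lies on chromosome 21 from 14371115 to 14383146 (GRCh38.p14). It is measured by 3 probes that the authors' table joins under NM_006948. The brightest (ILMN_2231985) read 249.4 with siTARBP2-1 and 230.8 with siTARBP2-2, against 779.4 with siControl-1 and 791.2 with siControl-2, with a detection p listed as 0 on all 4 arrays. Both knockdown arrays were low and both control arrays high, with a wide gap between them. After background correction and quantile normalization the means were 7.59 ± 0.14 in siTARBP2 and 9.57 ± 0.04 in siControl on the log2 scale (SD, n = 2 each), a difference of -1.98 (standard error 0.08), which is 3.95-fold lower.

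The second HSPA13 probe (ILMN_3249645) read 151.6 and 159.8 in siTARBP2, against 484.9 and 444.5 in siControl, with a detection p listed as 0 throughout. Its difference was also -1.98, with a standard error of 0.09. The third probe (ILMN_1670565) was dim, with a signal of 79.7 and 72.6 in siTARBP2 and detection p-values of 0.0117 and 0.0455 there, against 114.1 and 115.5 in siControl with a detection p of 0.0013 on each. It was thus not above background on either knockdown array and passed the detection filter only through the controls, where it is high. Its measured means were 5.05 in siTARBP2 and 6.19 in siControl on the log2 scale, and it was at least 1.96-fold lower in siTARBP2, taking the dimmest detected signal of each knockdown array, or its own signal where higher, as the bound. So both bright probes gave the same difference, and for the dim one only a lower bound can be given. In the authors' deposited table NM_006948 has a log fold change of -0.99. That value is the mean of the 3 probes on the authors' scale, an inverse hyperbolic sine of the normalized signal and not plain log2. On that scale the probes stood at -1.48, -1.21 and -0.30, so the averaged entry is smaller than the change of either bright probe.

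ERLIN1 and ERLIN2 encode paralogous proteins of the SPFH family, which also holds the prohibitins, flotillins and stomatin. In the membrane of the endoplasmic reticulum the pair assembles into large ring-shaped complexes that bind cholesterol and hand activated IP3 receptors to degradation. ERLIN2 lies on chromosome 8 from 37736634 to 37758422 and ERLIN1 on chromosome 10 from 100150094 to 100186029 (GRCh38.p14). The ERLIN2 probe for NM_007175 (ILMN_1700549) read 228.4 with siTARBP2-1 and 214.8 with siTARBP2-2, against 644.9 with siControl-1 and 608.1 with siControl-2, with a detection p listed as 0 on all 4 arrays. The groups were clearly apart. The means were 7.44 ± 0.11 in siTARBP2 and 9.22 ± 0.05 in siControl (log2, SD, n = 2 each), a difference of -1.77 (standard error 0.08), which is 3.42-fold lower.

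The other ERLIN2 probes, both for NM_001003791, gave far smaller differences. The first (ILMN_1669729) read 80.2 and 77.7 in siTARBP2, against 94.4 and 86.9 in siControl, and was detected on 1 of 2 knockdown and on both control arrays, with detection p-values of 0.00909 and 0.0234 in siTARBP2, against 0.0026 and 0.0039 in siControl. Its difference was -0.43 with a standard error of 0.19, and the groups were close but did not overlap. The value became -0.28 without siControl-1, -0.58 without siControl-2 and -0.21 with no background correction. The second (ILMN_2378664) read 75.1 and 76.8 in siTARBP2, against 83.9 and 77.4 in siControl. It was detected on siControl-1 alone, at a detection p of 0.0039 against 0.0338 with siControl-2 and, in knockdown, 0.0351 and 0.0247 with siTARBP2-1 and siTARBP2-2. It failed the detection filter, and its normalized groups overlapped. The probes of ERLIN2 therefore disagree in size: a probe well above background was much lower in knockdown, and those for the other accession were at or near background. The deposited table gives -1.25 for NM_007175 and -0.07 for NM_001003791 on the authors' scale, whose sizes do not compare directly with the log2 differences.

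The single ERLIN1 probe (ILMN_1730731, NM_006459) read 545.5 with siTARBP2-1 and 537.6 with siTARBP2-2, against 529.9 with siControl-1 and 538 with siControl-2, with a detection p listed as 0 on all 4 arrays. The groups overlapped, and the raw signals of all 4 arrays were nearly equal. The means were 8.92 ± 0.06 in siTARBP2 and 8.98 ± 0.03 in siControl (log2, SD, n = 2 each), a difference of -0.06 with a standard error of 0.07 and a 95% interval from -0.22 to 0.09. With median scaling in place of quantile normalization the sign turned, to 0.02. This probe was well above background on every array, unlike those of NM_001003791. The deposited table gives -0.05 for NM_006459 on the authors' scale.

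SACM1L encodes the SAC1 phosphatase, a membrane protein of the endoplasmic reticulum and Golgi that removes the phosphate from phosphatidylinositol 4-phosphate. It lies on chromosome 3 from 45689396 to 45745409 (GRCh38.p14). Its probe (ILMN_1765019, NM_014016) read 575.9 with siTARBP2-1 and 620.4 with siTARBP2-2, against 1393.4 with siControl-1 and 1425.2 with siControl-2, with a detection p listed as 0 throughout. Both knockdown arrays were below both controls. The means were 9.08 ± 0.04 in siTARBP2 and 10.45 ± 0.05 in siControl (log2, SD, n = 2 each), a difference of -1.37 (standard error 0.07), which is 2.59-fold lower. Even before any background correction the mean signal in siTARBP2 was 42.4% of that in siControl.

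TMEM33 encodes a multi-pass membrane protein that binds reticulons and modulates PERK signalling. It lies on chromosome 4 from 41935137 to 41960803 (GRCh38.p14). Its probe (ILMN_1760620, NM_018126) read 266 and 255.7 in siTARBP2, against 577.7 and 576.9 in siControl, with a detection p listed as 0 throughout. The groups were well apart, and the control arrays were almost equal. The means were 7.74 ± 0.09 in siTARBP2 and 9.10 ± 0.02 in siControl (log2, SD, n = 2 each), a difference of -1.36 with a standard error of 0.08.

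TAPT1 encodes a transmembrane protein whose loss in people disturbs skeletal development, and which has been placed at the centrosome and the base of cilia. It also lies on chromosome 4, from 16160505 to 16227390 (GRCh38.p14). Its probe (ILMN_1693882, NM_153365) read 180.7 with siTARBP2-1 and 181.6 with siTARBP2-2, against 376.5 with siControl-1 and 378.3 with siControl-2, with a detection p listed as 0 throughout. The arrays of each group agreed closely and the groups were well apart. The means were 7.07 ± 0.03 in siTARBP2 and 8.42 ± 0.02 in siControl (log2, SD, n = 2 each), a difference of -1.34 with a standard error of 0.09. For SACM1L, TMEM33 and TAPT1 the differences lay within each other's standard errors. The authors' deposited table gives -1.22, -0.99 and -0.82 for the accessions of these genes, in the same order. Those values are on the authors' scale, so their sizes do not compare directly with the log2 differences.

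**Figure D1:**
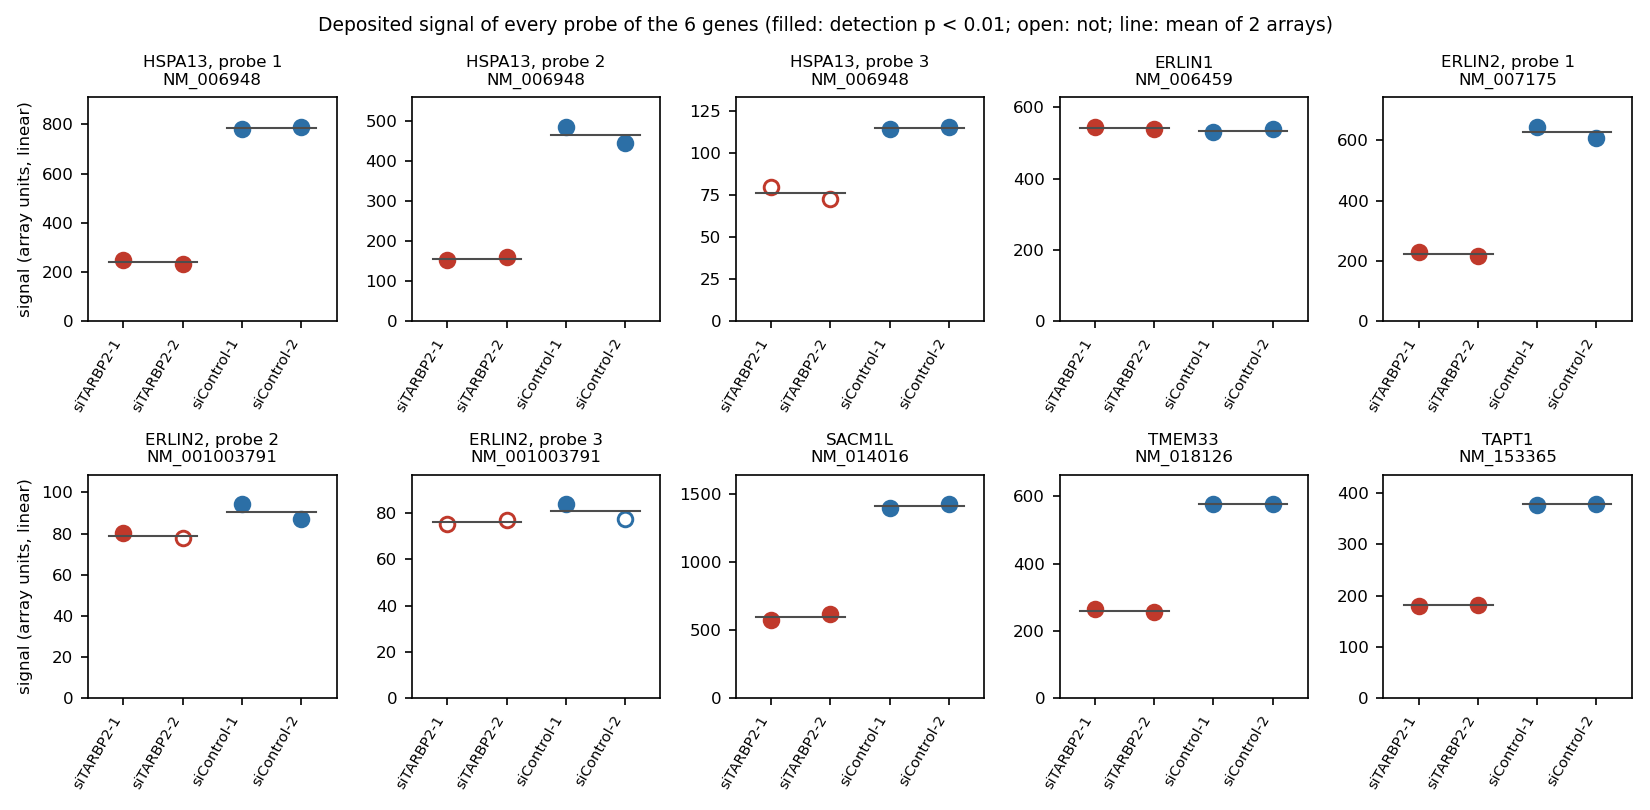
Deposited signal (linear array units, axis from 0, each panel on its own scale) of the 10 probes on siTARBP2-1, siTARBP2-2, siControl-1 and siControl-2; filled points have a detection p under 0.01, open points do not, and lines are means of 2 arrays. The bright probes of HSPA13, ERLIN2, SACM1L, TMEM33 and TAPT1 show both knockdown arrays well below both controls, ERLIN1 reads between 529.9 and 545.5 on all 4 arrays, and the NM_001003791 probes of ERLIN2 lie between 75.1 and 94.4.

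Over all tested probes 28.0% were called between siTARBP2 and siControl in either direction (limma, Benjamini-Hochberg adjusted p under 0.05), and 13.9% were called lower in knockdown. Among these 19295 probes, ordered from the largest fall, the 2 probes of TARBP2 came first. The bright HSPA13 probes stood at places 3 and 4, ERLIN2 (NM_007175) at 8, SACM1L at 13, TMEM33 at 14 and TAPT1 at 16. ERLIN1 was at place 7787. The dim HSPA13 probe and the NM_001003791 probes of ERLIN2 are given no place, since they were not detected on both knockdown arrays. These places describe the choice of the genes and support nothing about them. For 33.0% of the tested probes both knockdown arrays lay below both controls. The brightest probes of 5 of the 6 genes also lay apart in this way, all but that of ERLIN1. The median difference of the brightest probes of the 6 genes was -1.37, against -0.01 over all tested probes.

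**Figure D2:**
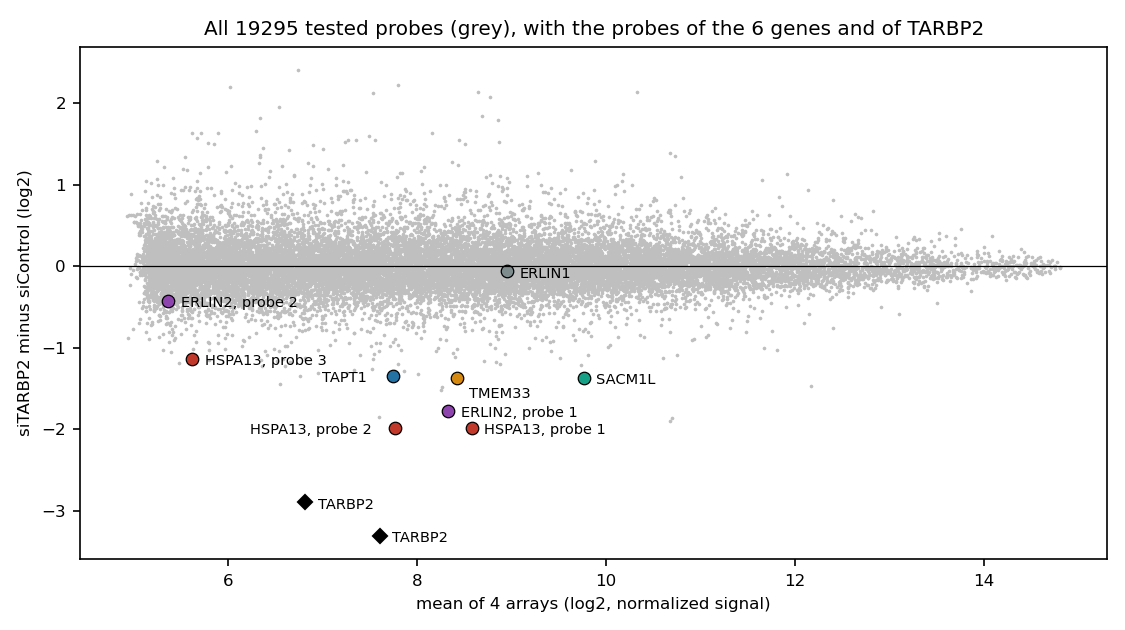
Difference between siTARBP2 and siControl (log2) against the mean of the 4 arrays (log2 normalized signal) for all 19295 tested probes in grey, with the tested probes of the 6 genes as coloured circles and those of TARBP2 as black diamonds. HSPA13 probes 1 and 2 lie at -1.98 and ERLIN1 at -0.06, inside the grey band; HSPA13 probe 3, undetected in siTARBP2, is drawn at its measured value.

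Whether the siRNAs differed is a contrast that did not choose the genes, and it was tested in a fit of all probes. For the brightest HSPA13 probe siTARBP2-1 gave -1.89 and siTARBP2-2 gave -2.08 against the mean of the controls. For ERLIN2 (NM_007175) they gave -1.70 and -1.85, for SACM1L -1.40 and -1.34, for TMEM33 -1.30 and -1.43, and for TAPT1 -1.32 and -1.36, in the same order of siRNAs. Both comparisons share the control arrays. Of the 10 probes 9 passed the detection filter and 7 were detected on both knockdown arrays. None of the 7 passed the test between siTARBP2-1 and siTARBP2-2 (limma adjusted p between 0.929 and 0.988, lowest unadjusted p 0.0982). Over all tested probes 0.0259% passed, and 1072 had an unadjusted p under 0.05.

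The 95% interval of the difference, siTARBP2-1 minus siTARBP2-2, ran from -0.04 to 0.42 for HSPA13, from -0.09 to 0.40 for ERLIN2, from -0.25 to 0.14 for SACM1L, from -0.11 to 0.36 for TMEM33 and from -0.23 to 0.32 for TAPT1, at the brightest probes. Each siRNA is a single array, so the 2 controls alone supply the spread, on the assumption that knockdown arrays scatter as much. Differences of this size were thus not resolved, and the intervals do not show that the siRNAs act alike.

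**Figure D3:**
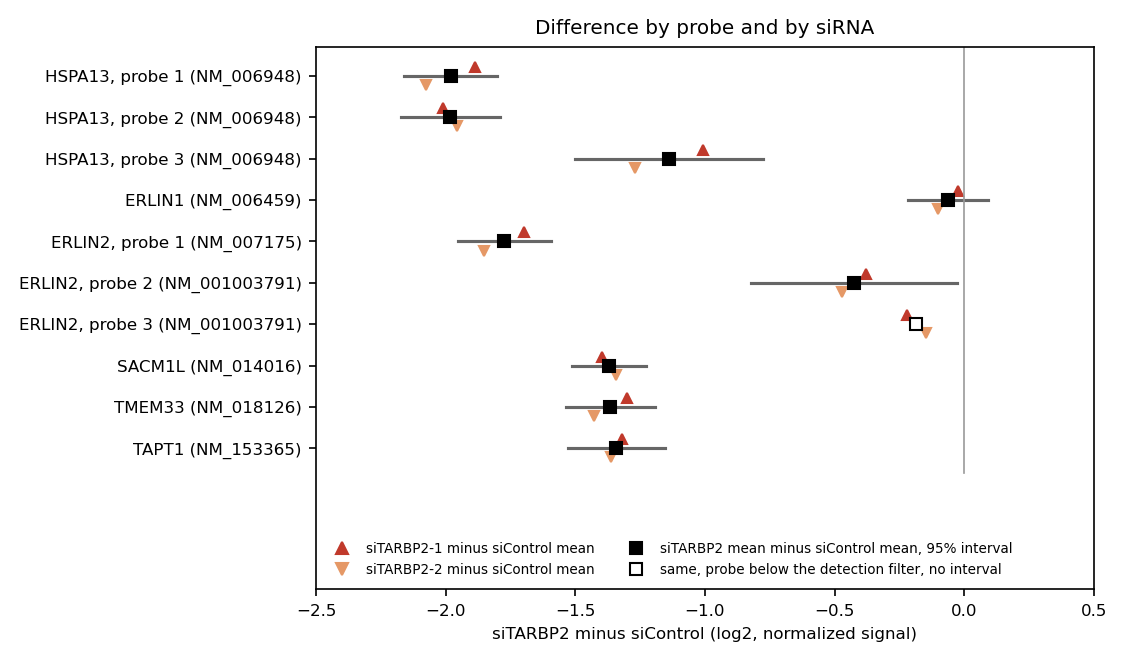
Difference from siControl (log2 normalized signal) for each probe of the 6 genes: squares are the siTARBP2 mean minus the siControl mean with the 95% interval of the fit, upward triangles siTARBP2-1 and downward triangles siTARBP2-2, each minus the siControl mean. The triangles of HSPA13 probe 1 lie at -1.89 and -2.08, and the open square is the ERLIN2 probe that failed the detection filter. HSPA13 probe 3, undetected in siTARBP2, is drawn at its measured values, and its triangles lie farthest apart, at -1.01 and -1.27.

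The genes whose 4 array values were nearest to each of the 6, by Euclidean distance after subtracting each probe's mean (log2), were mostly the same few. PTBP3, a polypyrimidine tract binding protein, was nearest to HSPA13 at a distance of 0.17 and to ERLIN2 at 0.15, with a difference of -1.865 of its own. SGCB, which encodes beta-sarcoglycan, was next for both, at 0.50 and 0.30, and second for TMEM33 at 0.12. DNAAF9, named for dynein assembly, was nearest to TMEM33 (0.12) and to TAPT1 (0.08), and was among the nearest pair to SACM1L (0.12), with a difference of -1.29 of its own. The nearest genes to ERLIN1 were INTS12, an Integrator subunit, and ILK, integrin-linked kinase, both nearly flat at -0.06. INTS12 gave 0.00 with median scaling, and ILK 0.11 on the mean of its probes. With 4 arrays in 2 groups, this distance is mostly a likeness in the size of the difference.

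Of the 11275 genes with a tested probe, 31.6% were called, 15.8% higher and 15.8% lower. Other genes of the same families and pathways are read against this background. Counts for the lists take the brightest tested probe of each gene, with limma p-values adjusted over all tested probes. Lower is always in siTARBP2. Across all lists the differences ran between -0.75 and 0.51, so no listed gene came near the difference of -1.34 of TAPT1.

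In the HSP70 family, the relatives of HSPA13, 14 of 15 genes were tested, 1 rose and 5 fell, with a median difference of -0.14 against -0.01 over all genes. HYOU1, a large HSP70 of the endoplasmic reticulum, fell to 8.79 in siTARBP2, against 9.12 in siControl (log2 means, difference -0.33, limma adjusted p = 0.00360). HSPA4L fell by 0.24 on the log2 scale (limma adjusted p = 0.00801), a call lost with median scaling (0.121), without a variance trend (0.0632) and without siControl-1 (0.0561). The other genes that fell, named after their values were seen, were the testis-enriched HSPA2 (-0.52), the mitochondrial HSPA9 (-0.17) and HSPA4 (-0.16). HSPA2 was dim, with signals between 110.5 and 138.4, and gave -0.33 with no background correction. The call of HSPA2 was lost without siTARBP2-2 (limma adjusted p = 0.0540). Those of HSPA9 and HSPA4 were lost under several settings, among them median scaling (0.0830 and 0.254) and leaving out siTARBP2-1 (0.170 and 0.159) or siControl-2 (0.363 and 0.109). HSPA4 was also lost without siControl-1 (limma adjusted p = 0.206), and HSPA9 gave -0.10 without siControl-2. HSPA1B rose by 0.32 (limma adjusted p = 0.00724), which was lost without a variance trend (0.109) and without siControl-2 (0.0956, difference 0.18). HSPA1A is nearly identical to it in sequence and gave -0.19 (limma adjusted p = 0.116), so the probes of this pair are uncertain. HSPA5, the main chaperone of the compartment, gave -0.01 (limma adjusted p = 0.927), and 0.06 with median scaling. With median scaling, or without a variance trend, 2 genes of the family were called lower in place of 5, and 3 with no detection filter or without siControl-1.

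Of the SPFH relatives of the erlins, 6 of 9 were tested, 1 rose and 1 fell, with a median of 0.07. FLOT2, a flotillin, rose by 0.17 (limma adjusted p = 0.0343) and STOML2, a mitochondrial stomatin-like protein, fell by 0.17 (0.0416). Both calls were lost with no detection filter (0.0720 and 0.0972), without a variance trend (0.161 and 0.184), without siTARBP2-2 (0.148 and 0.154) and without siControl-2 (0.236 and 0.276), and that of STOML2 also with median scaling (0.163). The prohibitin PHB1 gave 0.10 (limma adjusted p = 0.207).

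Among 20 genes that work with the erlins or in the same degradation of IP3 receptors and sterol regulators, 19 were tested, 2 rose and 6 fell, with a median of -0.10. ITPR1, an IP3 receptor and so a client of the erlin complex, fell by 0.43 on the log2 scale, with means of 9.89 in siTARBP2 and 10.32 in siControl (limma adjusted p = 2.00e-04). ITPR3 rose by 0.22, with means of 12.70 in siTARBP2 and 12.48 in siControl (limma adjusted p = 0.00516), a call lost with no variance trend (0.0771), and ITPR2 gave 0.00 (0.992). The 3 receptor genes thus did not move in 1 direction.

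FAF2, which recruits the extraction ATPase VCP, fell by 0.36 (limma adjusted p = 2.76e-04) and the ubiquitin ligase RNF5 fell by 0.42 (8.26e-04). RNF170, the ubiquitin ligase bound by the erlins, gave 0.02 (limma adjusted p = 0.888), and -0.07 without siControl-2. TMUB1, a membrane protein of the same degradation route, rose by 0.22 (limma adjusted p = 0.0376), a call lost with no detection filter (0.0508), without a variance trend (0.162), without siTARBP2-2 (0.291) and without siControl-1 (0.193). The other genes that fell, named after their values were seen, were SEL1L (-0.58) and SYVN1 (-0.27), adaptor and ligase of the same degradation complex, and NPLOC4 (-0.23), a cofactor of VCP. SEL1L was dim, with signals of 115.7 and 112.4 in siTARBP2 against 142.5 and 147.1 in siControl. It gave -0.39 with no background correction. With median scaling the calls of SYVN1 (limma adjusted p = 0.0724) and NPLOC4 (0.194) were lost, as they were without a variance trend (0.0512 and 0.0863), and SYVN1 was lost on the mean of its probes (0.0526). NPLOC4 was also lost without siTARBP2-1 (limma adjusted p = 0.129), siControl-1 (0.0988) or siControl-2 (0.0994).

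Around SACM1L, the list of other Sac phosphatases, phosphatidylinositol 4-kinases and endoplasmic reticulum contact-site proteins had 15 of 17 genes tested, of which 2 rose and 1 fell, with a median of -0.11. The number that fell was 2 without siTARBP2-1 or siControl-1, with a replicate block, a robust variance model, 1 probe per gene or the mean of probes. TMEM39A, a membrane protein known to bind SACM1L and aid its exit from the endoplasmic reticulum, fell by 0.41 (limma adjusted p = 0.00152), with means of 8.06 in siTARBP2 and 8.48 in siControl. ESYT2, a tether to the plasma membrane, rose by 0.23 (limma adjusted p = 0.00673), lost without a variance trend (0.0836) and without siControl-1 (0.0557). PI4K2A, a kinase that makes the substrate of SACM1L, rose by 0.34 (limma adjusted p = 0.0232), lost without a variance trend (0.0769), without siTARBP2-2 (0.224), without siControl-1 (0.0598) and without siControl-2 (0.0717). VAPA, the contact-site anchor, had probes of opposite sign, -0.22 at the brightest (limma adjusted p = 0.0654) and 0.45 at a dimmer one, and their mean gave 0.12. With 1 probe per gene the brightest VAPA probe was called (0.0495).

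Among proteins that shape the network, where TMEM33 acts with reticulons, 17 of 18 were tested, 5 rose and 3 fell, with a median of 0.05. REEP5, a membrane-curving protein, rose by 0.35 (limma adjusted p = 3.06e-04). ATL2, a fusion GTPase of the network, fell by 0.34 (limma adjusted p = 0.00348), and CKAP4, a sheet-forming protein, fell by 0.27 (0.00353, and 0.0640 without a variance trend). RTN4, a reticulon that keeps tubules curved, rose by 0.23 (limma adjusted p = 0.00966), a call lost without a variance trend (0.118), without siTARBP2-2 (0.103) and without siControl-2 (0.0503). The others, named after their values were seen, were the reticulon RTN1, which fell by 0.45, and REEP6 (0.51), KTN1 (0.21) and RRBP1 (0.21), which rose. RTN1 and REEP6 were dim, with signals between 122.4 and 208.8, and gave -0.34 and 0.36 with no background correction. RTN1 was no longer called on the mean of its probes (limma adjusted p = 0.114). KTN1 and RRBP1 were lost without a variance trend (limma adjusted p = 0.131 and 0.0912), without siTARBP2-2 (0.0964 and 0.0521) and without siControl-2 (0.156 and 0.0727). Without a variance trend, without siTARBP2-2 or without siControl-2, 2 genes of this list were called higher in place of 5.

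Of sensors and early targets of the unfolded protein response, 10 of 12 were tested, 0 rose and 5 fell, with a median of -0.25. DDIT3, a transcription factor downstream of PERK, ATF6 itself and MANF, a secreted resident protein, had the smallest p, with differences of -0.75, -0.46 and -0.35 (limma adjusted p = 5.91e-06, 8.17e-05 and 8.45e-04). DNAJB9 (-0.31), a co-chaperone of HSPA5, and PPP1R15A (-0.29), a phosphatase subunit that ends the PERK signal, fell as well and were named after their values were seen. The call of PPP1R15A was lost without a variance trend (limma adjusted p = 0.0677). EIF2AK3, which encodes PERK, gave -0.17 (limma adjusted p = 0.186). Of the SUN domain proteins, 4 of 4 were tested, 0 rose and 1 fell, with a median of 0.17. SUCO, whose yeast relative pairs with the relative of TAPT1, gave 0.23 (limma adjusted p = 0.0931), and it was called with median scaling (0.0387) and without siControl-1 (0.0303, difference 0.36). SUN2 fell by 0.20 (limma adjusted p = 0.0147), lost with median scaling (0.123), without a variance trend (0.0997), without siControl-1 (0.0549) and without siControl-2 (0.0790). SUN1 gave 0.15 (limma adjusted p = 0.0929).

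**Figure D4:**
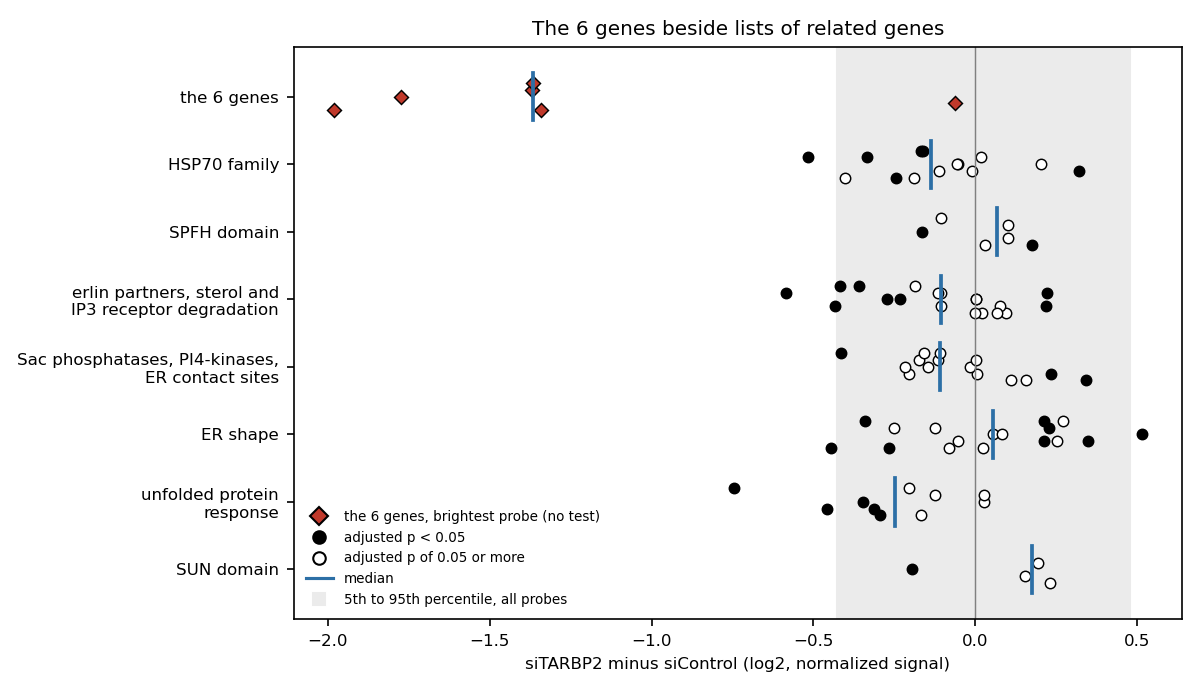
Difference between siTARBP2 and siControl (log2 normalized signal) at the brightest probe of each of the 6 genes (red diamonds, no test) and of the tested genes of 7 related lists (filled: limma adjusted p under 0.05, open: not), with the median of each row in blue and the 5th to 95th percentile of all tested probes shaded. The diamonds of 5 genes lie at or below -1.34 and ERLIN1 at -0.06, while the lists lie between -0.75 and 0.51.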

How the data were processed

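RNA of 2 siTARBP2 and 2 siControl samples was profiled on Illumina BeadChips, 1 array each. The authors deposited an intensity per probe before normalization, with background not subtracted, and a detection p-value per probe and array, per the file headers. They also deposited normalized linear intensities, by a method that no source names, and a table per RefSeq accession. It holds a log fold change, whose base is not stated, and a 0 or 1 mark that counts as another kind of value. For the accessions matched below, the log fold change was reproduced as a difference of group means after an inverse hyperbolic sine transform of the normalized intensities. It is therefore quoted on the authors' scale and is not a plain log2 difference. The submitters' processing notes name lumi (version not given in the sources used here).

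No probe annotation was used. The deposited log fold changes were matched to probes by recomputing them from the normalized intensities (tolerance 1e-09), which joined 39329 of 39747 accessions; for accessions with several probes, groups of 2 to 4 nearby probes were averaged. After a shift of 1e-06 only 18 single matches and 23 groups were found. Accessions without versions were named through RefSeq (GRCh38.p14), which gave 27758 probes a symbol. Probe positions within genes and splice forms were not analysed here.

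The non-normalized intensities were background-corrected (normexp from detection p-values), offset by 16, quantile-normalized and put on the log2 scale with neqc of limma 3.58.1 (R 4.3.3). Probes detected (p under 0.01) on at least 2 of 4 arrays were kept, 19295 in all. limma (lmFit, eBayes with a variance trend) gave differences and Benjamini-Hochberg adjusted p-values over all of them, called at 0.05. A fit with 3 groups compared the siRNAs. An exact permutation test of 2 against 2 arrays cannot go below p = 0.333 and was not used. The number of arrays, 4, limits the precision. The fits were also run on simulated data with independent normal noise drawn from the fit's own variances. Such data cannot test that noise model, and the outcome is not given here.

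The 6 genes and all gene lists were chosen with earlier results of these data known. Of each list, the 3 genes with the smallest p and the known partners or paralogs of the 6 genes were named, and for each of the 6 the 2 genes nearest in pattern (some items are not reported here); other called genes are named as chosen after their values were seen. Replicate numbers 1 and 2 occur in both groups and were not treated as pairs in the main fit. The correlation of same-numbered deviations was -0.000555. It cannot show that the arrays were unpaired, since the siTARBP2 deviations also carry the difference between the siRNAs. Alternatives covered scaling, background, filters, probes per gene, variance model, a replicate block, leaving out each array, and the normalized table.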

Additional observations from a re-analysis of the deposited data

How the results depend on the processing

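Over the alternatives run on the non-normalized table, HSPA13, ERLIN2, SACM1L, TMEM33 and TAPT1 lay between -2.08 and -1.10 at the brightest probe or the mean of probes. The smallest fall was that of ERLIN2 when its probes were averaged. Detection filters, 1 probe per gene and a replicate block cannot move these differences, nor can averaging for genes with a single probe. Only scaling, background, averaging of several probes and leaving out an array could change them. ERLIN1 lay between -0.10 and 0.02, the positive value with median scaling. The median of the 6 genes, -1.37, became -1.30 with median scaling, -1.26 with no background correction, and -1.40 to -1.35 leaving out 1 array in turn. Taken as labelled, the normalized table reversed it to 1.25. There HSPA13 read 1.76, 1.60 and 0.58, ERLIN2 1.53 and 0.20, SACM1L 1.30, TMEM33 1.20, TAPT1 1.09 and TARBP2 2.57 and 1.97, and all 48 named genes turned sign, since its columns stand crosswise to the arrays.

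Over all probes 5404 were called between siTARBP2 and siControl, against 3147 without a variance trend and 3714 to 4227 leaving out 1 array. With median scaling 67.3% of calls were higher in siTARBP2, against 50.2% in the quantile-normalized values. Between siTARBP2-1 and siTARBP2-2, 5 probes were called by limma, but 35 with median scaling, 21 with cyclic loess, 26 with no detection filter, 2 with 1 probe per gene, and 0 with the mean of probes (604 at an unadjusted p under 0.05) or without a variance trend (921). The cause was not tested. With a replicate block the count was 5509, while the median of the 6 genes, which a block cannot move, stayed at -1.37. Of 672 values of other named genes, 596 kept direction and side of the threshold, 9 of genes not called turned sign, 64 lost the call, 3 gained it and 0 calls reversed. With the detection filters, 1 probe per gene, the variance models and the replicate block only the p-value can move, so direction was not challenged there. Probes near background bound what a fall can show.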
